A study of Arabidopsis thaliana with 6 samples.

Results

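*MYB4* (*AT4G38620*), *MYB7* (*AT2G16720*), *MYB32* (*AT4G34990*) and *MYB3* (*AT1G22640*) are the subgroup 4 R2R3-MYB repressors, 4 of the 36796 genes in the table of RNA counts. They were taken by their locus identifiers, and all 4 passed the filter on low counts. RNA had been isolated from whole rosettes of *ref4-3* and wild-type Arabidopsis in the Columbia background at 21 days of age, and each of the 3 libraries per genotype pooled 5 unbolted plants. *ref4-3* is a semidominant allele of *MED5b* that replaces a single amino acid in a subunit of the Mediator tail module, and the wild-type plants carried no mutation named in the labels. Seeds of both genotypes were cold treated for 3 days. All plants grew at 22°C under 150 μE light, with a 16 h light period and an 8 h dark period. Tissue was harvested 6 h after lights on. The labels do not say whether the plants of a replicate number shared a tray or a day, so the p-values measure the spread between these libraries.

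R2R3-MYB proteins bind DNA through a pair of MYB repeats, and those of subgroup 4 carry a C-terminal EAR-type motif through which they repress transcription. MYB4, the best studied, represses *C4H* and the formation of sinapate esters that shield leaves from ultraviolet light. MYB7 has been linked to the repression of flavonol genes, MYB32 to pollen wall formation and lignin genes, and MYB3 to the repression of phenylpropanoid and anthocyanin genes. Phenylpropanoid metabolism leads from phenylalanine to lignin, sinapate esters and flavonoids. Repression of phenylpropanoid biosynthesis genes is a known trait of *ref4-3* plants, whereas the study describes flavonoid genes as mostly increased.

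The 4 coding sequences were compared first, because transcripts of close paralogs can be counted for one another. The 60-base stretch in which they were most alike covers coding positions 274 to 333 of every gene, within the DNA-binding MYB repeats. It is shown 5′ to 3′ on the coding strand, from the RefSeq genome and annotation of TAIR10.1, with bases that differ from *MYB4* in capitals.
MYB4: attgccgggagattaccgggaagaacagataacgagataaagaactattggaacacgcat
MYB7: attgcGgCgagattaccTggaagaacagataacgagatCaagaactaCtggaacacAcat
MYB32: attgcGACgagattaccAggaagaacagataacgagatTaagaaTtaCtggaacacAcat
MYB3: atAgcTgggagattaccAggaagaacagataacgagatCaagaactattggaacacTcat
Even there, 51 of 60 positions were the same in all 4 genes, and *MYB7*, *MYB32* and *MYB3* differed from *MYB4* at 6, 8 and 5 bases. Over the aligned coding sequence, *MYB7* and *MYB32* were closest, with 78.8% identity, and *MYB4* and *MYB3* shared 60.2%. The longest run of identical bases between 2 transcripts was 36, for *MYB7* and *MYB32*. No other gene matched any of the 4 transcripts at 95% identity or more over at least 50% of its length, and no annotated gene overlapped them.

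Transcripts of the 4 genes did not move together in *ref4-3* plants. *MYB4* rose 12.8-fold and *MYB7* 6.6-fold, *MYB32* rose 1.79-fold, and *MYB3* fell, with a wild-type level 2.52 times that of *ref4-3* plants. With the thresholds of the study's methods, a change above 2-fold at an adjusted p-value below 0.05, there were 3 differentially expressed genes (DEGs) among the 4, *MYB4*, *MYB7* and *MYB3*. Of all 23050 genes tested, 9.72% were DEGs, 4.48% in the higher and 5.24% in the lower direction. All 4 genes passed the adjusted p-value alone, 3 higher and 1 lower, as did 20.4% of all genes, 8.52% higher and 11.9% lower. The *ref4-3* and wild-type libraries did not overlap for any of the 4, nor for 45.3% of all genes tested (22.4% higher and 22.8% lower).

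**Figure D1:**
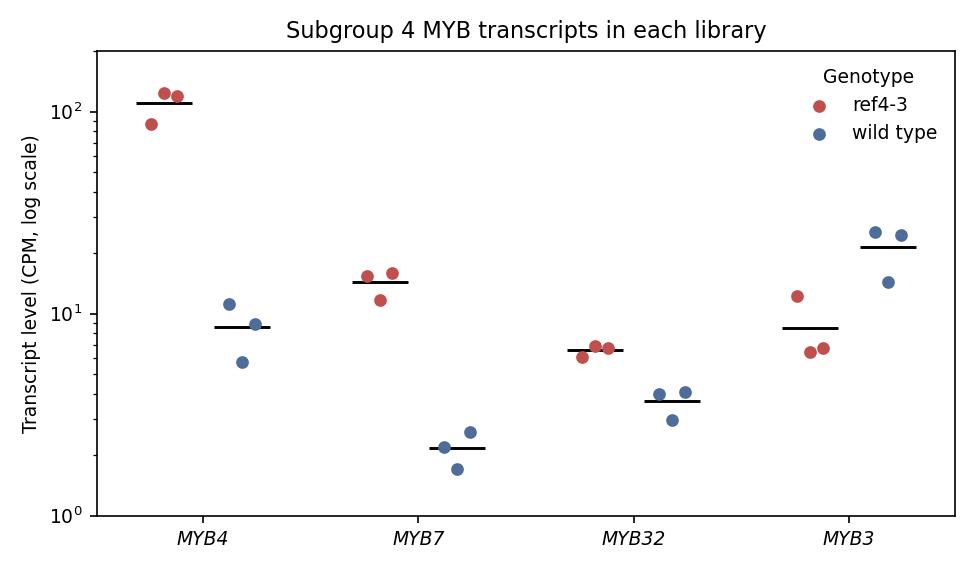
Transcript level of each subgroup 4 gene in CPM (log axis). Each point is a library, 3 per genotype, and black lines are means; the *ref4-3* points lie above the wild-type points for *MYB4*, *MYB7* and *MYB32* and below them for *MYB3*.

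*MYB4* lies on the plus strand of chromosome 4 from 18053360 to 18055040. Scaled to library size (CPM), it had 86.6, 124 and 120 CPM in *ref4-3* replicates 1, 2 and 3, against 11.1, 5.74 and 8.88 CPM in wild-type replicates 1, 2 and 3. The counts behind these levels were 2983 to 3880 in *ref4-3* and 165 to 351 in wild-type libraries. The lowest *ref4-3* library was thus several times the highest wild-type library, and the spread within wild type (CV 31.6%) was wider than within *ref4-3* (CV 18.7%). The log2 fold change (log2FC) was 3.68 (SE 0.27, adjusted p = 7.2e-04 from edgeR), and 29 of the 23050 genes tested had a larger one.

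*MYB7* lies on the minus strand of chromosome 2 from 7255473 to 7256831 and was the least abundant of the 4 in wild type. Its level was 15.3, 11.7 and 15.8 CPM in *ref4-3* replicates 1, 2 and 3, against 2.19, 1.70 and 2.60 CPM in wild-type replicates 1, 2 and 3. The wild-type levels rest on 49 to 69 counts, and the 95% Poisson interval of the highest, 53.7 to 87.3, stays below the lowest *ref4-3* count of 340. These intervals cover counting error only. The log2FC was 2.72 (SE 0.21, adjusted p = 8.8e-04 from edgeR), exceeded by 123 genes.

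*MYB32* lies on the minus strand of chromosome 4 from 16661101 to 16662549. Its transcript level was 6.10, 6.93 and 6.77 CPM in *ref4-3* and 4.00, 2.99 and 4.09 CPM in wild-type replicates 1, 2 and 3. The genotypes did not overlap, and the gap between their closest libraries was wider than the range within either genotype. Its log2FC of 0.84 (SE 0.18, adjusted p = 0.0196 from edgeR) was below the threshold of a 2-fold change, and 3259 genes had a larger one. With 1 library left out at a time, the adjusted p-value reached 0.05 or more 3 times in 6: 0.0616 without *ref4-3* replicate 2, 0.0837 without *ref4-3* replicate 3 and 0.0503 without wild-type replicate 2.

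*MYB3* lies on the plus strand of chromosome 1 from 8006064 to 8007465 and was the only one of the 4 with lower transcript levels in *ref4-3* plants. It had 12.2, 6.48 and 6.74 CPM in *ref4-3* replicates 1, 2 and 3, against 25.3, 14.4 and 24.4 CPM in wild-type replicates 1, 2 and 3. *ref4-3* replicate 1 and wild-type replicate 2 came close to each other, and each stood apart from the other libraries of its genotype. The log2FC was -1.33 (SE 0.31, adjusted p = 0.0252 from edgeR), and 1009 genes had a lower one. The call was lost without *ref4-3* replicate 2 (log2FC -1.17, adjusted p = 0.0796), without *ref4-3* replicate 3 (-1.20, adjusted p = 0.0991) and without wild-type replicate 3 (-1.26, adjusted p = 0.0535), again from edgeR.

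Wild-type replicate 2 had the lowest level of each of the 4 genes among wild-type libraries. It also had counts on 27913 genes, against 32015 to 34884 in the other libraries, and a summed level of 6 rapidly induced stress genes (*ZAT10*, *ZAT12*, *WRKY33*, *WRKY40*, *ERF6* and *ORA47*) of 2382 CPM. In the other wild-type libraries this sum was 526 and 654 CPM, and in *ref4-3* libraries it was 53.7 to 97.1 CPM. Without that library, the log2FC of *MYB4*, *MYB7*, *MYB32* and *MYB3* were 3.44, 2.56, 0.69 and -1.57. The part of the stress genes in these results was not tested.

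Total counts per library ranged from 26060005 to 32879414, at which 3 counts correspond to 0.0871 to 0.124 CPM. The summed level of 5 leaf genes (*RBCS1A*, *CAB2*, *LHCB2.1*, *CA1* and *RCA*) was 12749 to 16276 CPM in *ref4-3* and 21779 to 27479 CPM in wild-type libraries. Root markers (*RHD6*, *EXPA7*, *COBL9*, *CASP1*, *IRT1* and *WOX5*) summed to 3.43 to 4.54 CPM in *ref4-3* and 0.974 to 1.87 CPM in wild type. Floral organ genes (*AP1*, *AP3*, *PI*, *AG* and *SEP3*) summed to 5.40 to 9.16 CPM in *ref4-3* and 10.9 to 15.1 CPM in wild type, and no leaf, root or floral marker was at 0 in all 6 libraries. The part of these markers in the results was not tested, and in whole rosettes a change in the cells that express a gene cannot be told apart from a change in RNA per cell. *REF4*, the gene that carries the *ref4-3* substitution, was measured at 17.4 CPM in *ref4-3* and 21.5 CPM in wild-type plants (log2FC -0.31, adjusted p = 0.202 from edgeR), which does not check the labels because a substitution need not alter the level. Its paralog *RFR1* had a log2FC of 0.28 (adjusted p = 0.336 from edgeR).

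To compare levels between the 4 genes, counts were scaled per kb of annotated exon (RPKM). In wild-type plants the order was the same in each of the 3 libraries: *MYB3* at 15.2 ± 4.30 RPKM, *MYB4* at 5.65 ± 1.79, *MYB32* at 2.73 ± 0.45 and *MYB7* at 1.68 ± 0.349 (SD, n = 3). In *ref4-3* plants *MYB4* came first at 72.6 ± 13.6 RPKM, followed by *MYB7* at 11.1 ± 1.76 (SD, n = 3). *MYB3* (6.04 ± 2.29 RPKM) and *MYB32* (4.87 ± 0.324 RPKM) changed places between *ref4-3* libraries, so their order was not resolved.

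The make-up of the family therefore differed between genotypes. *MYB4* provided 69.5%, 81.3% and 78.1% of the summed RPKM of the 4 genes in *ref4-3* replicates 1, 2 and 3, against 24.4%, 21.4% and 20.7% in wild-type replicates 1, 2 and 3. *MYB3* provided 10.6%, 4.59% and 4.76% in *ref4-3* libraries and 60.1%, 58.5% and 61.5% in wild-type libraries. The share of *MYB7* was 11.9 ± 2.74% in *ref4-3* and 6.78 ± 0.982% in wild type, and that of *MYB32* was 5.17 ± 0.281% in *ref4-3* and 11 ± 1.39% in wild type (SD, n = 3 libraries each). None of the 4 shares overlapped between genotypes. As parts of 1 sum the shares are not independent: that of *MYB32* was lower in *ref4-3*, although its own level was higher (4.87 RPKM against 2.73 RPKM in wild type). For each share a two-sided exact permutation test gave p = 0.1, also after adjustment over the 4 shares, the smallest value that 3 libraries against 3 allow. For the share of *MYB3* this outcome was fixed beforehand, because its level was lower and those of the others higher without overlap.

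The summed level of the 4 genes was 94.6 ± 10.8 RPKM in *ref4-3* and 25.3 ± 6.72 RPKM in wild-type plants, a 3.74-fold difference (SD, n = 3 each; exact permutation test, two-sided p = 0.1). With *MYB4* left out, the sum was 25.1, 18.8 and 22.1 RPKM in *ref4-3* replicates 1, 2 and 3 and 22.7, 13.8 and 22.4 RPKM in wild-type replicates 1, 2 and 3. These sums overlapped (1.12-fold; exact permutation test, two-sided p = 0.7). Each of the 3 genes in them passed the adjusted p-value in the fit of all 6 libraries, *MYB32* and *MYB3* not in every fit with 1 library left out.

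**Figure D2:**
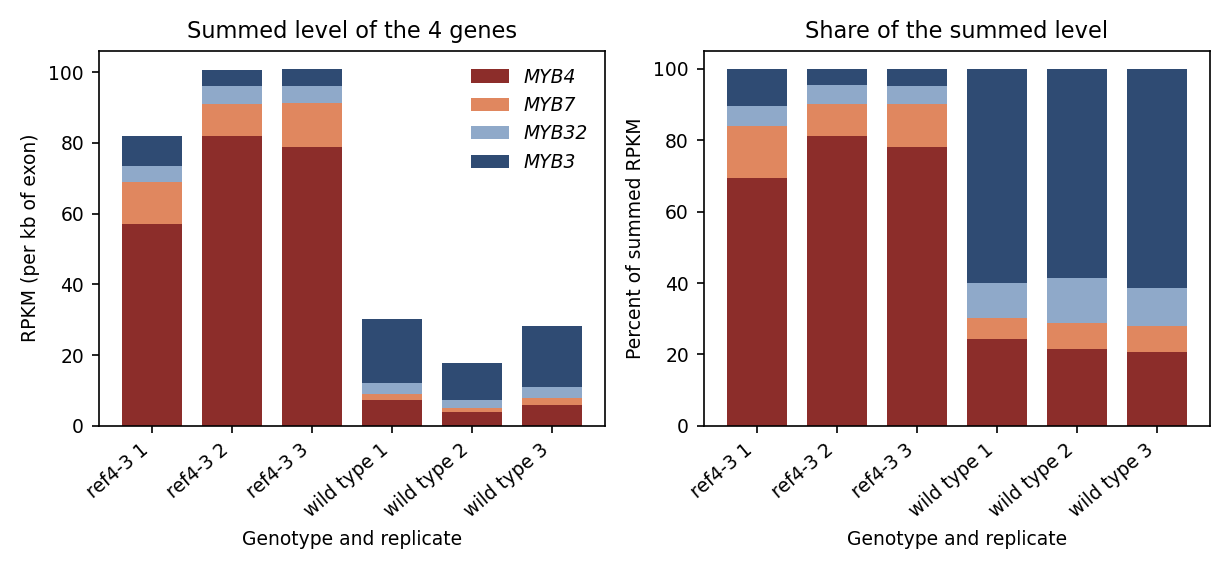
Summed RPKM of the 4 genes (left) and the share of each gene in that sum (right) in each *ref4-3* and wild-type library. *MYB4* takes 69.5% to 81.3% of the sum in *ref4-3* libraries, and *MYB3* takes 58.5% to 61.5% in wild-type libraries.

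Ratios of 2 genes within a library do not depend on library scaling, and all 6 pairs were compared. The log2 ratio of *MYB4* to *MYB3* was 2.72, 4.15 and 4.04 in *ref4-3* replicates 1, 2 and 3, against -1.30, -1.45 and -1.57 in wild-type replicates 1, 2 and 3, a difference of 5.07. *MYB4* thus stood at 12.4 times *MYB3* in *ref4-3* and at 0.369 times *MYB3* in wild-type plants. For *MYB7* and *MYB3* the log2 ratios averaged 0.92 ± 0.45 in *ref4-3* and -3.16 ± 0.23 in wild type (SD, n = 3). The sequence-similar pair, *MYB7* and *MYB32*, had log2 ratios of 1.4, 0.82 and 1.30 in *ref4-3* and -0.80, -0.74 and -0.58 in wild-type libraries, so that the more abundant gene of the pair was *MYB7* in *ref4-3* and *MYB32* in wild type. The smallest difference was that of *MYB4* and *MYB7*, which both rose: their log2 ratio was 2.26, 3.18 and 2.68 in *ref4-3* and 2.11, 1.51 and 1.53 in wild type, a difference of 0.99. The ratios of the genotypes did not overlap for any of the 6 pairs, and each gave the smallest possible p of 0.1, also after adjustment over the 6 pairs (exact permutation test, two-sided). For the pairs with *MYB3* this outcome was fixed beforehand, because the levels of both genes did not overlap and moved in opposite directions. The 6 ratios come from 4 genes and are not independent.

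**Figure D3:**
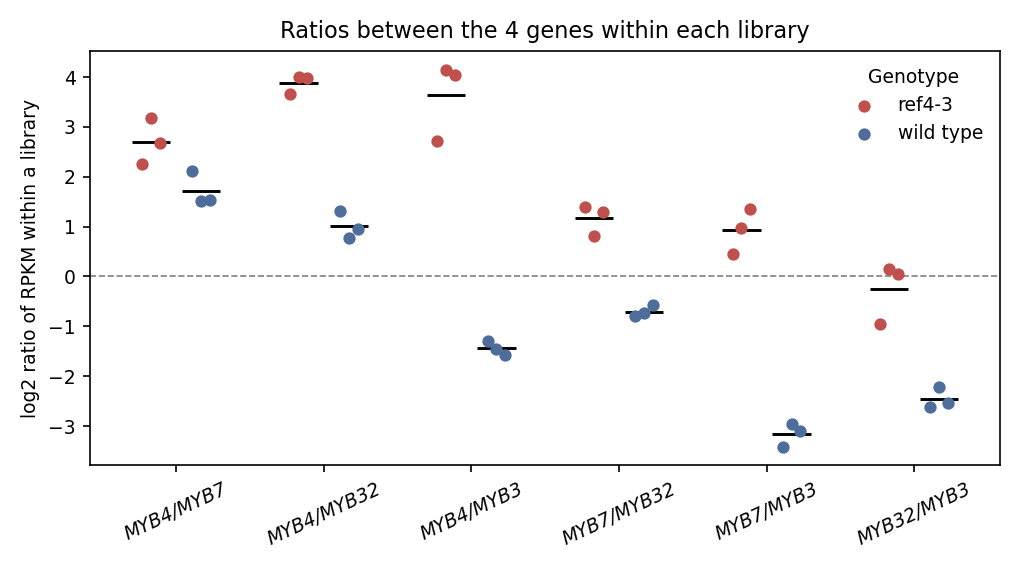
Log2 ratio of RPKM for each pair of genes within a library. Points are 3 libraries per genotype, black lines are means and the dashed line marks equal levels; the smallest shift between genotypes is that of *MYB4*/*MYB7* (0.99) and the largest that of *MYB4*/*MYB3* (5.07).

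The annotated neighbours of the 4 genes were also read. *RPN10*, which lies 1947 bases from *MYB4* and codes for a proteasome subunit, had 90.2 CPM in *ref4-3* and 92.9 CPM in wild-type plants (log2FC -0.04, adjusted p = 0.829 from edgeR). *SLP2* and *APX3*, on either side of *MYB32*, stood at -0.42 (adjusted p = 0.253) and -0.09 (adjusted p = 0.573) on the same scale. *AT2G16730*, next to *MYB7*, was scarce, with 1.03 CPM in *ref4-3* and 0.328 CPM in wild-type plants (log2FC 1.61, adjusted p = 0.121 from edgeR). *AT1G22630*, next to *MYB3*, had a log2FC of -0.58 (adjusted p = 0.0629 from edgeR). Of the 6 neighbours with enough counts to be tested, 1 passed the adjusted p-value, as did 20.4% of all genes tested. It was *A/N-InvD*, an invertase gene 5887 bases from *MYB3* (log2FC -0.92, adjusted p = 0.0116 from edgeR).

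The 250 bases before the annotated start of *MYB4*, *MYB7* and *MYB32* were searched on both strands for 3 AC elements, sites of MYB binding in phenylpropanoid promoters, and for the G-box (CACGTG), a site of bHLH binding. The AC elements were ACCTACC (AC-I), ACCAACC (AC-II) and ACCTAAC (AC-III), and none overlapped another in these windows. The windows of *MYB4* (chr4:18053110-18053359, plus strand) and *MYB7* (chr2:7256832-7257081, minus strand), the genes that rose most, are shown 5′ to 3′ from TAIR10.1, with matches in capitals.
MYB4: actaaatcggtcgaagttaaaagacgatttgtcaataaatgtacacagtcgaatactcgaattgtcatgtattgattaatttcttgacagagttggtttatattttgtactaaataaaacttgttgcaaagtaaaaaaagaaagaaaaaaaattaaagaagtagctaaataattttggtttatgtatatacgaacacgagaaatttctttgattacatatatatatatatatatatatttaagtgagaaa
MYB7: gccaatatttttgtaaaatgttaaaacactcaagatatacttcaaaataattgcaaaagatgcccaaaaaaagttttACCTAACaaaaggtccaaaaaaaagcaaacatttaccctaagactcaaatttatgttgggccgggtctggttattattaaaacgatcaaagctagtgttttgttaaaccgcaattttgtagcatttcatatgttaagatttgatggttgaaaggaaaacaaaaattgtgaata
*MYB7* had 1 match to AC-III, which starts 173 bases before the gene. *MYB4* and *MYB32* had none in this window, and no G-box was found in any of the 3. Of 27443 protein-coding genes on the nuclear chromosomes, 6.12% had an AC element and 6.49% a G-box in the same window.

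Profiles most like each gene were found as the smallest root mean square difference in log2 CPM over the 6 libraries, each profile centred on its own mean, among the 19053 genes that averaged 1 CPM or more. For *MYB4* these were *AT3G13310*, a DnaJ-domain protein gene (0.20), *AT3G04000*, a gene for a protein with a Rossmann fold (0.28), and *UGT74F1*, which codes for a salicylic acid glucosyltransferase (0.30). *AT3G13310* had 262, 285 and 273 CPM in *ref4-3* and 23.3, 17 and 19.6 CPM in wild-type replicates 1, 2 and 3. For *MYB7* they were *scpl33*, a serine carboxypeptidase-like gene (0.11), *AT2G41190*, an amino acid transporter family gene (0.15), and *UGT72E2*, a glycosyltransferase gene (0.18). *UGT72E2* had 5.84, 4.15 and 7.17 CPM in *ref4-3* and 0.349, 0.417 and 0.867 CPM in wild-type replicates 1, 2 and 3. The 0.5 CPM added before taking logs narrows the profiles of scarce genes: *UGT74F1*, with 0.579 CPM in wild type, had a log2FC of 4.02 in the fit, against 3.68 for *MYB4*, and *scpl33* and *UGT72E2* had 3.77 and 3.42, against 2.72 for *MYB7*. These 3 genes reached a mean of 1 CPM only through their *ref4-3* levels. The profiles nearest to *MYB3* were *AT3G55240* (0.12), *AT3G52060* (0.15) and *CIPK7*, a calcium sensor-interacting kinase gene (0.17). The profile of *MYB32* was shared by many genes: 1588 lay within a difference of 0.25, against 1 for *MYB4*, 11 for *MYB7* and 39 for *MYB3*, and the nearest were *AT1G60545*, *AT1G34844* and *AtIPCS3*. Within the family, *MYB4* and *MYB7* were nearest to each other (0.67), with 37 genes nearer to *MYB4* than *MYB7* was and 328 genes nearer to *MYB7* than *MYB4* was. Profiles were not scaled for amplitude, so these differences and numbers of near genes largely reflect the size of each gene's own change between genotypes.

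Among the wider MYB family, taken as the 115 genes whose annotation symbol is MYB and a number, 99 were tested, some of which passed the filter on low counts only through the genotype in which they were higher. *MYB4* had the largest log2FC of these 99, *MYB7* the third largest, *MYB32* ranked 42nd and *MYB3* 95th. By RPKM, *MYB4* ranked 2nd of 99 in *ref4-3* and 20th in wild-type plants, whereas *MYB3* ranked 19th in *ref4-3* and 8th in wild type. The close relative *MYB6* had 19.3, 18.4 and 18.8 CPM in *ref4-3* and 14.7, 17 and 16 CPM in wild-type libraries (log2FC 0.25, adjusted p = 0.149 from edgeR). *MYB8* (*HOS10*), another close relative, was scarce, with 1.57, 2.54 and 1.36 CPM in *ref4-3* and 0.444, 0.0696 and 0.248 CPM in wild-type replicates 1, 2 and 3. Its annotation symbol is *HOS10*, so it was not among the 99 ranked genes. It was near or below the filter on low counts in wild type and so was tested because of its *ref4-3* level. Its log2FC was 2.80 (SE 0.55, adjusted p = 0.0158 from edgeR), above the 2.72 of *MYB7*, so the rank of *MYB7* depends on how the family is named. The adjusted p-value of *MYB8* was 0.0554 and 0.0511 without *ref4-3* replicates 2 and 3.

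Genes of the phenylpropanoid and flavonoid pathways, other regulators and described partners were read from lists. Whether they respond to the 4 proteins in these plants was not tested. Over all 23050 genes tested, 4.48% were DEGs with higher and 5.24% with lower levels, and 11.9% were lower by the adjusted p-value alone. The median log2FC over all genes tested was 0.01. Of 19 phenylpropanoid enzyme genes, 8 were DEGs with lower levels and none with higher levels, and 13 were lower by the adjusted p-value alone. Their median log2FC was -0.94. *PAL2*, a phenylalanine ammonia-lyase gene, had a log2FC of -2.11 and *HCT*, which codes for a shikimate hydroxycinnamoyl transferase, of -1.79. The other phenylalanine ammonia-lyase genes, *PAL1*, *PAL3* and *PAL4*, had -0.73, -0.32 and 0.06, none with an adjusted p-value under 0.05. *C4H*, the described target of MYB4 and named here for that reason after its values had been seen, had 54.3, 39.5 and 42.0 CPM in *ref4-3* and 80.0, 78.6 and 73.3 CPM in wild-type replicates 1, 2 and 3. The genotypes did not overlap for *C4H*, and its log2FC was -0.77 (adjusted p = 0.0143 from edgeR; 0.0524 and 0.0700 without *ref4-3* replicates 2 and 3).

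Of 13 flavonoid genes tested, 8 were DEGs with higher levels, none with lower levels and 5 did not pass the test, and the median log2FC was 1.38. The largest were *TT7*, the flavonoid 3′-hydroxylase gene (log2FC 4.00, SE 0.40), and *DFR*, which codes for dihydroflavonol reductase (3.27, SE 0.29). Genes for sinapate esters and their supply were divided, with 2 DEGs among 6 tested and a median of 0.14. *UGT84A2*, the sinapate glucosyltransferase gene, had 137, 86.3 and 94.4 CPM in *ref4-3* and 17.6, 14.6 and 10.1 CPM in wild-type replicates 1, 2 and 3, a log2FC of 2.91 (SE 0.26, adjusted p = 0.00146 from edgeR). Its relative *UGT84A3* had a log2FC of 1.11, but its call was lost without *ref4-3* replicate 3 (adjusted p = 0.0557 from edgeR) and, by its log2FC, without *ref4-3* replicate 1 (0.94) and wild-type replicate 3 (0.93). *SNG1*, whose product makes sinapoylmalate, had 158, 125 and 128 CPM in *ref4-3* and 251, 270 and 274 CPM in wild-type replicates 1, 2 and 3 (log2FC -0.95, adjusted p = 0.00641 from edgeR), short of a 2-fold change and also named after its values had been seen.

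**Figure D4:**
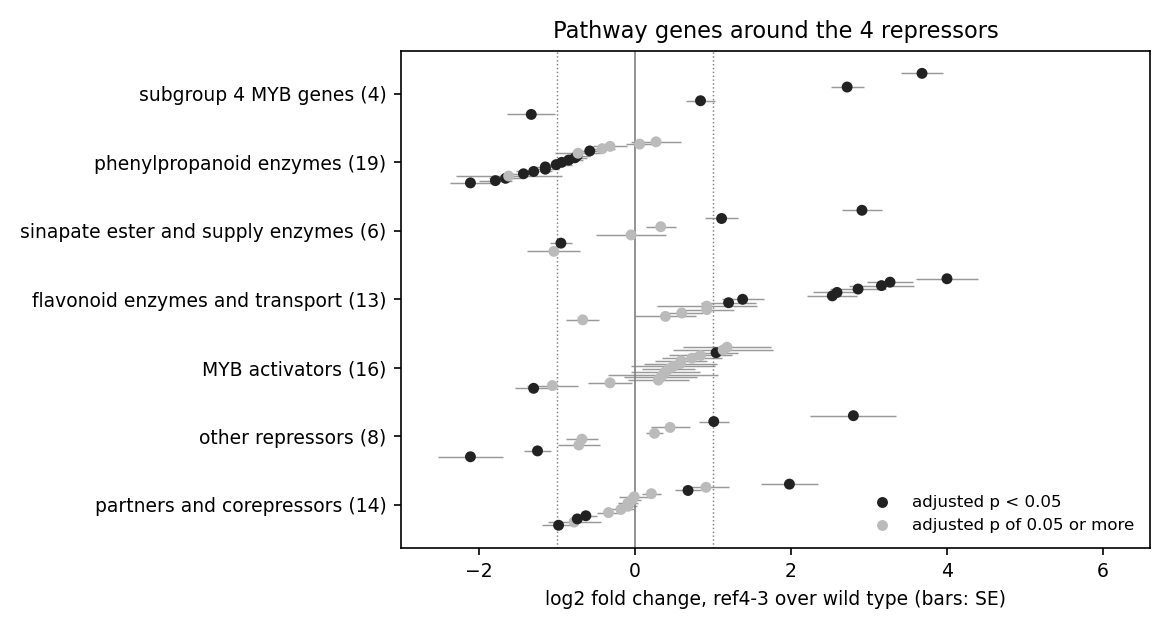
Log2FC of the 4 subgroup 4 genes and of pathway lists around them, with SE; each point is a gene, black where the adjusted p-value was under 0.05, and dotted lines mark a 2-fold change. Numbers in parentheses are genes tested; phenylpropanoid enzymes lie mostly left of 0 (median -0.94) and flavonoid genes mostly right of it (median 1.38).

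Of 16 tested MYB activators of the pathway, 1 was a DEG with higher and 1 with lower levels, and the median was 0.46. Over all genes tested 9.72% were DEGs, and the median over the 99 tested MYB family genes was 0.58. The counts and median of the activators are therefore not read as a trait of that list. *MYB111*, a flavonol activator, had a log2FC of 1.04 (adjusted p = 0.0379 from edgeR), with an adjusted p-value of 0.0581 to 0.109 when any library was left out. *MYB20*, an activator of lignin genes, had -1.30 (adjusted p = 0.0129 from edgeR; 0.0625 without *ref4-3* replicate 3). Other repressors were divided, with 2 DEGs higher and 2 lower of 8. Besides *MYB8*, the nitrate-responsive regulator *LBD39* was higher (1.01, and 0.83 to 1.11 with 1 library left out), and *LBD38* was lower (-1.25). *MYBL2*, a single-repeat repressor of anthocyanin genes, had 30.8, 13.2 and 10.8 CPM in *ref4-3* and 108, 56.7 and 72.5 CPM in wild-type replicates 1, 2 and 3. Its log2FC was -2.11 (SE 0.42, adjusted p = 0.0166 from edgeR; 0.0588 and 0.0632 without *ref4-3* replicates 2 and 3).

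Of 14 genes for partners and corepressors 1 was a DEG, beside 9.72% of all genes tested, so that count is not read as a trait of the list. It was *TT8*, a bHLH partner of MYB proteins, with 10.6, 5.35 and 4.33 CPM in *ref4-3* and 1.90, 1.5 and 1.73 CPM in wild-type libraries (log2FC 1.98, adjusted p = 0.0122 from edgeR). The related bHLH gene *EGL3* had 0.68 (adjusted p = 0.0325), *GL3* 0.91 (adjusted p = 0.0692) and the WD40 gene *TTG1* -0.74 (adjusted p = 0.00599) on the log2 scale from edgeR. The adjusted p-value of *EGL3* was 0.05 or more with any library left out but wild-type replicate 1. Also lower by the adjusted p-value, and named after their values had been seen, were *SAD2*, which codes for an importin that carries MYB4 into the nucleus (-0.63, adjusted p = 0.0214 from edgeR), and *LNK2*, which codes for a clock protein described to act with MYB3 (-0.98, adjusted p = 0.0197 from edgeR). *SAD2* exceeded 0.05 without any 1 of the *ref4-3* libraries, with adjusted p-values of 0.0532 to 0.0939, and *LNK2* had 0.0688 and 0.0739 without *ref4-3* replicates 2 and 3. Its relative *LNK1*, also in the list, had -0.78 (adjusted p = 0.141 from edgeR), and its libraries overlapped between genotypes. The corepressor genes *TPL*, *TPR1*, *TPR2*, *TPR3* and *TPR4* and the deacetylase genes *HDA6* and *HDA19* had log2FC of -0.34 to 0.21, none with an adjusted p-value under 0.05.

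**Figure D5:**
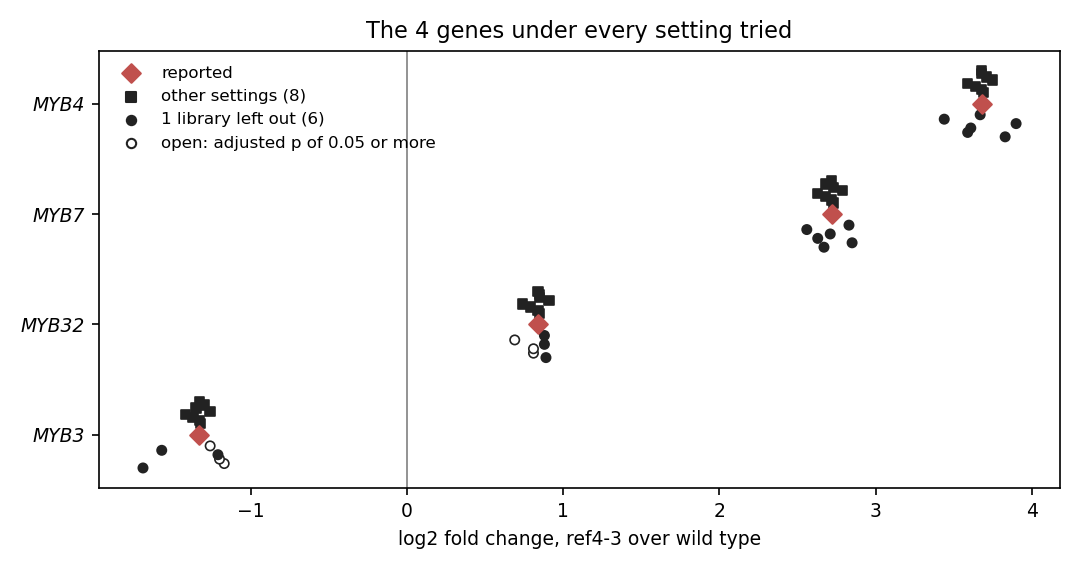
Log2FC of each subgroup 4 gene as reported (diamonds), under 8 other settings (squares) and with 1 library left out (circles); open symbols had an adjusted p-value of 0.05 or more. *MYB4* stays between 3.44 and 3.90 and *MYB7* between 2.56 and 2.85, whereas *MYB32* and *MYB3* each have 3 open circles.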

How the data were processed

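The 4 genes and the gene lists were chosen with earlier results of these data known. Per the labels and the study's methods, the authors used fastp 0.23.2 to trim the paired-end reads, mapped them to TAIR10 with HISAT2 2.2.1, sorted them with SAMtools 1.17 and deposited raw counts per gene, without normalization or pooling of libraries. The strand setting and the treatment of multiply mapped reads are not given in the sources used here. Because paralogs could share reads, the members' sequences were compared (mafft 7.526, BLAST+ 2.17.0). The upstream sequence of *MYB3* is not reported here.

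The 6 libraries were grouped by their labels, and total counts ranged from 26060005 to 32879414. Differential expression was computed in R 4.3.3 with edgeR 4.0.16. Its filterByExpr (minimum count 10, minimum total 15) retained 23050 genes, and TMM factors and the quasi-likelihood F test (two-sided) were applied, with p-values adjusted by Benjamini-Hochberg over all of them. SE was derived from the F statistic. CPM use TMM-scaled library totals, and RPKM divide them by exon length in the RefSeq annotation of TAIR10.1. That is not Araport11, which the study's methods name for annotating genes. Shares and ratios were compared by exact permutation tests (scipy 1.17.1), and profiles used log2 of CPM plus 0.5. The models were checked on simulated data. Genes named besides the 4 were the 2 DEGs with the largest rise and fall in each list, close relatives, partners and the 3 nearest profiles, with exceptions given in the text. Alternatives were DESeq2 1.42.0, edgeR's exact test (named in the study's methods), RLE factors, other filters, a replicate block, leaving out each library, thinned counts (seed 1), organelle genes left out, no fold change threshold and other lengths.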

Additional observations from a re-analysis of the deposited data

How the results depend on the processing

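The log2 fold changes of the 4 genes kept their sign in all 14 alternatives, and those of *MYB4* and *MYB7* stayed under an adjusted p-value of 0.05 in each. When 1 library was left out, *MYB4* ranged from 3.44 to 3.90, *MYB7* from 2.56 to 2.85, *MYB32* from 0.69 to 0.89 (adjusted p up to 0.0837 from edgeR) and *MYB3* from -1.69 to -1.17 (adjusted p up to 0.0991 from edgeR), and 2 to 3 of the 4 were DEGs. Leaving out *ref4-3* replicate 3 moved the counts of all DEGs most: over these fits they ranged from 345 to 945 higher and from 456 to 1471 lower, both lowest without it. The list counts ranged from 6 to 11 for lower phenylpropanoid genes, from 6 to 8 for higher flavonoid genes, from 1 to 3 for sinapate genes, from 0 to 2 for MYB activators, from 2 to 4 for other repressors and from 1 to 3 for partners. With edgeR's exact test, 1692 genes were higher. Without the fold change threshold, 1964 genes were higher and 2737 lower, 13 phenylpropanoid genes were lower and 5 partners were called. DESeq2 called 1 MYB activator and 2 partners. With no filter beyond 1 count, 1 activator, 2 partners and 4 sinapate genes were called, and the median log2 fold change over shared genes moved by -0.10. For the exact test and DESeq2, which change several choices together, the cause was not tested. The share of *MYB32* in *ref4-3* plants was 4.83% by coding length and 4.75% of counts.

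The replicate numbers showed no clear pairing of the libraries (correlations of deviations -0.0979, -0.024 and 0.207, with 2 of 6 libraries closest to their own number). So few libraries cannot settle whether they were paired. With the replicate number as a block, the log2 fold changes were 3.71, 2.73, 0.85 and -1.35 for *MYB4*, *MYB7*, *MYB32* and *MYB3*, all with an adjusted p-value under 0.05 from edgeR, and 703 genes were higher and 974 lower. Depth limits the scarcest gene most, since wild-type *MYB7* rests on 49 to 69 counts.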

Other observations

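Outside the pathway lists, 2 further MYB family genes are given here, named after their values had been seen. *MYB51*, a regulator of indole glucosinolate genes, had 8.89, 6.86 and 8.78 CPM in *ref4-3* and 42.6, 153 and 86.7 CPM in wild-type replicates 1, 2 and 3 (log2FC -3.52, adjusted p = 0.00452 from edgeR). Its highest level was in wild-type replicate 2, the library in which the stress genes were highest, and the part of those genes was not tested. *MYB48* had 50.1, 74.2 and 62.3 CPM in *ref4-3* and 22.9, 12.6 and 22.7 CPM in wild-type replicates 1, 2 and 3 (log2FC 1.68, adjusted p = 0.00774 from edgeR).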
